A study of Mus musculus with 2 samples.

Results

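The receptor tyrosine kinases Egfr, Erbb3, Pdgfra, Pdgfrb, Fgfr1, Fgfr2, Fgfr3 and Met and the PDGF chains Pdgfa and Pdgfb were followed through the cells of an orthotopic mouse glioma, 10 of the 19059 genes that the probe set measures. The genes were listed by symbol, by a rule that sets no limit on a measured value but was written with earlier results of these data known. All animals were C57BL/6J mice that carried mGSC, a line of mouse glioblastoma stem cells with the genotype Trp53+/- and Nf1+/-, injected into the right striatum. One group received Xevinapant, an oral SMAC mimetic that binds the inhibitors of apoptosis cIAP1, cIAP2 and XIAP, every day for a week, and the control group received vehicle. The tumor cells of both groups descend from a single line, which limits them as a model, and the host brain cells around them were not removed by a sort.

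Each group was deposited as a pool of 4 matrices, and no label ties a matrix to a mouse. Vehicle matrices 1 and 3, Xevinapant matrices 1 and 2, and Xevinapant matrices 3 and 4 were far closer to each other than other pairs of a group, so each pair was joined and counted as 1 sample. Per degree of freedom, the chi-square of their cell type counts was 0.3 to 2.26 for the joined pairs and 5.13 to 35.9 for the other pairs of a group. The spread over genes of the difference between matrices, in units of its error over cells (1 for noise alone), was 1.13 for the vehicle pair and 1.88 and 2.07 for the Xevinapant pairs, so the latter differed by more than noise, beside 3.61 to 7.08 for the other pairs. This left vehicle A, B and C (n = 3) and Xevinapant A and B (n = 2), and sample values are printed in that order throughout. Cells came from 4 tumors per group, as many as there are matrices, but no source ties a matrix to a mouse. The p-values of treatment within a gate thus measure the spread between these samples, which may be technical. Those of states, cell types and differing responses come from fits with the sample as a block. They measure how far the differences between gates varied over the samples. The groups were also processed on different dates as different pools, and the labels give total RNA for vehicle and polyA RNA for Xevinapant, so treatment, date and pool cannot be told apart. Of 56943 barcodes, 46815 passed the filters on genes, mitochondrial share, complexity, doublets and a minimum of 1000 UMIs (unique molecular identifiers, each standing for 1 captured molecule). The matrices held 71835789 to 300206053 UMIs each. No full barcode was shared within a group, but 1413 were found in both groups, of which 555 were among the classified cells (1.61% of them). Every fit was repeated without them, and the calls that changed are given with the limits.

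Receptor tyrosine kinases are membrane receptors that pair up when a ligand binds, phosphorylate each other and signal through Ras and PI3 kinase, and neurofibromin, the product of Nf1, switches Ras off. PDGF chains form dimers, of which the A chain dimer binds PDGFRα and the B chain dimer binds PDGFRα and PDGFRβ. In the brain PDGFRα marks oligodendrocyte precursor cells (OPCs), PDGFRβ marks pericytes, FGFR3 is typical of astrocytes and their precursors, ErbB3 is a neuregulin receptor of the oligodendrocyte and Schwann cell lineages, and EGFR and PDGFRα are the receptors most often amplified in human glioblastoma.

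Cells were assigned to types and tumor states from the UMIs of marker genes that include none of the 10 members. The tumor gate took 32239 cells, in which the 10 glial lineage markers summed to 6612 to 8681 CPM (UMIs of a gene or list per 1000000 UMIs of the cells of a gate in a sample) and the 6 immune markers to 16.1 to 25.1 CPM. Among them 7400 cells were OPC-like, 4320 cycling OPC-like, 2876 committed OPC-like, 126 oligodendrocyte-like, 2600 AC-like (astrocyte), 2082 MES-like (mesenchymal, hypoxic) and 665 NPC-like (neural progenitor). These names stand for ranges of a marker score, and host glia that carry the same markers are not separated from tumor cells by them. NPC-like cells entered the tumor gate on at least 4 NPC-like markers, without having to pass the glial lineage limit. Host neurons with those markers are therefore not separated from NPC-like tumor cells either. The glial lineage markers stood at 29.6% to 58.0% of their tumor level in the NPC-like gate. Many cells lay near a boundary: 5683 tumor cells were within 20% of the OPC-like score limit, which 16565 passed, and 1017 were within 20% of the NPC-like limit, which only 754 passed. Of the tumor cells, 10926 passed no state's limit and 1244 passed more than 1 of the non-OPC-like limits and were given no state. The other cell types were 785 microglia, 482 macrophages, 364 fibroblasts, 213 neutrophils, 189 endothelial cells, 115 T and NK cells and 14 mural cells. The tumor marker list stood at 4.76% to 9.03% of its tumor cell level in those types, a share that the gates themselves limit, since cells with more of these markers were kept out of them.

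Promoter sequences are shown for Fgfr3, whose AC-like samples were all above those of every other state, and for Egfr and Pdgfra, whose levels were both high in OPC-like cells and moved in opposite directions in AC-like and committed OPC-like cells. Each runs 5′ to 3′ from 250 bases before to 50 after an annotated start (RefSeq, GRCm38.p6). Of the 10 members, 6 had a promoter entry. The windows were searched on each strand for GGGCGG (the GC box), CAGCTG (an E-box), TATAAA and ACAAAG, and capitals mark matches, with CCGCCC as the reverse strand of GGGCGG.
Egfr, chr11:16751953-16752252, plus strand: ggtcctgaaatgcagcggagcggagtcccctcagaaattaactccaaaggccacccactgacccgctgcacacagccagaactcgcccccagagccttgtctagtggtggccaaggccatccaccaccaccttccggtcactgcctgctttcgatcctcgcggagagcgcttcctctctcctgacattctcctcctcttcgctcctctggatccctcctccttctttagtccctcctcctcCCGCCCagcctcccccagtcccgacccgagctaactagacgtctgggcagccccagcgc
Pdgfra, chr5:75152001-75152300, plus strand: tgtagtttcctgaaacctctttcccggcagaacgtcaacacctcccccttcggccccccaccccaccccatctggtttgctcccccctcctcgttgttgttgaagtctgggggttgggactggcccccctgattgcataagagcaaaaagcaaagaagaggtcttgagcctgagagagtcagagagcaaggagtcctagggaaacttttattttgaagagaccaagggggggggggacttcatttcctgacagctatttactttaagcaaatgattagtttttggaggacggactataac
Fgfr3, upstream start, chr5:33721474-33721773, plus strand: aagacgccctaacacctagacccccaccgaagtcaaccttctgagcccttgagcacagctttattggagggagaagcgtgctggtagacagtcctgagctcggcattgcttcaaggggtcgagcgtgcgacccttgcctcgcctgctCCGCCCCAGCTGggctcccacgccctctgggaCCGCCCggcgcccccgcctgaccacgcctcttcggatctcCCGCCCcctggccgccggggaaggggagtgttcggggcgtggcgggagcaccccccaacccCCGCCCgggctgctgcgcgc
Fgfr3, downstream start, chr5:33722056-33722355, plus strand: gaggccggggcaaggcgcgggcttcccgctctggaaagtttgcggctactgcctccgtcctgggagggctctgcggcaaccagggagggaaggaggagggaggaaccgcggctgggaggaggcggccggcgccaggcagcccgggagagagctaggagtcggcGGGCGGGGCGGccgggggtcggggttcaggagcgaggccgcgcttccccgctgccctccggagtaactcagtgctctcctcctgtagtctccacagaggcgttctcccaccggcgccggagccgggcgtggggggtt
The Egfr window held 1 GGGCGG, the upstream Fgfr3 window 4 with 1 CAGCTG that directly follows the first of them, and the downstream Fgfr3 window 2 that overlap each other. No match to any of the 4 motifs was in the Pdgfra window. GGGCGG was in 35.7% of 32851 mouse promoters, CAGCTG in 16.3%, TATAAA in 13.6% and ACAAAG in 18.7%. The GC content was 62.3% for Egfr, 51% for Pdgfra and 69.7% and 73% for the Fgfr3 starts, beside a median of 52.7% for all promoters, and the windows held 15, 5, 26 and 30 CG dinucleotides beside a median of 7. These matches are a description of the letters only.

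Expression levels, in CPM as defined above, are compared within a gene and between gates, since each gene has its own probes. For the states, each state was tested against the mean of the other 6 with the sample as a block, and 50 of the 70 member contrasts passed an adjusted p of 0.05 (24 higher, 26 lower). That count has to be read against the share of all 12566 genes tested that passed in the same contrast. All 10 members passed in AC-like cells, where 71% of all genes did; 8 of 10 in NPC-like cells (64%) and in committed OPC-like cells (43.3%); and 6 of 10 in MES-like (60%), cycling OPC-like (59%), OPC-like (37.2%) and oligodendrocyte-like cells (34.1%). By direction, OPC-like cells had 3 members higher (18% of all genes) and 3 lower (19.2%), cycling OPC-like cells 2 higher (29.9%) and 4 lower (29.2%), committed OPC-like cells 2 higher (21.8%) and 6 lower (21.5%), and oligodendrocyte-like cells 3 of each (18.6% and 15.5%). AC-like cells had 7 members higher (33.7% of all genes) and 3 lower (37.3%), MES-like cells had 6 higher (30.4%) and none lower (29.6%), and NPC-like cells had 1 higher (31.1%) and 7 lower (33%). The median log2 difference of the members was 1.75 in AC-like cells, 0.43 in MES-like cells and -1.22 in NPC-like cells, and between -0.64 and -0.05 in the other states, while the median of all genes lay between -0.036 and -0.0044 in each state. The members were not tested as a set against other genes. Pdgfrb reached the count filter of this fit only through its AC-like samples, and Pdgfb only through its NPC-like and AC-like samples. Their calls as higher in those states are thus tied to the filter and are given as a description.

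**Figure D1:**
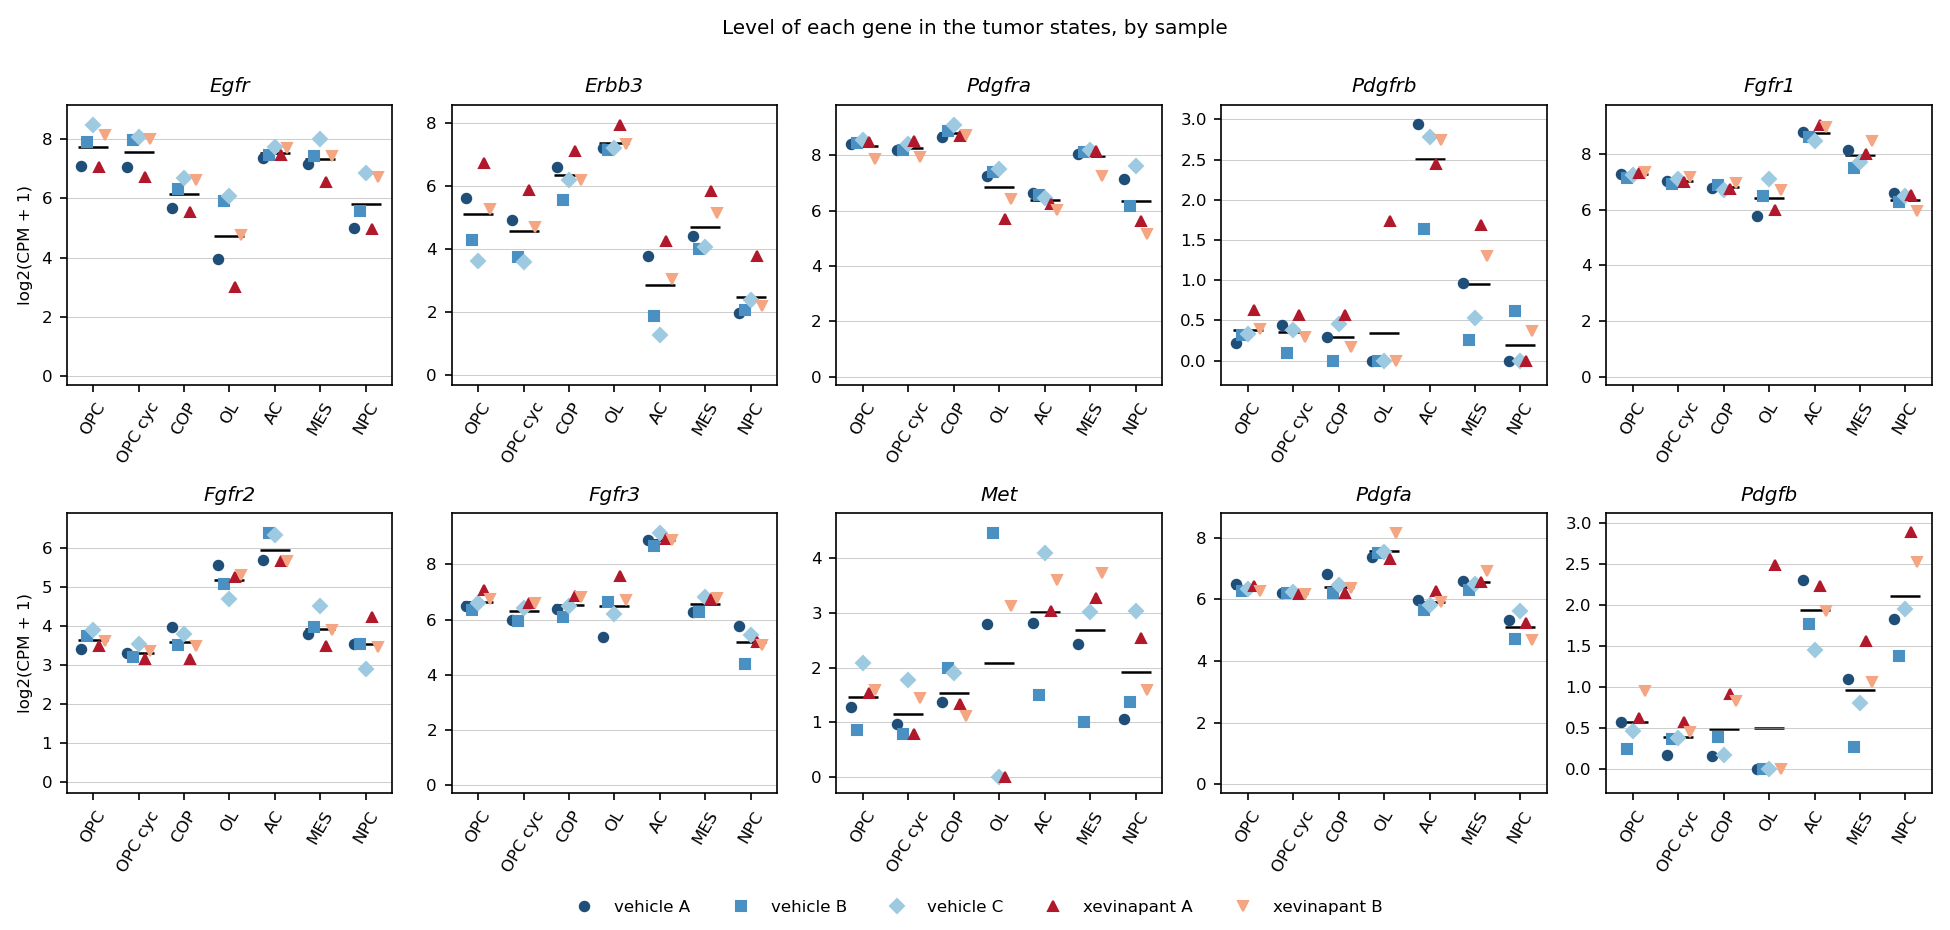
Level of the 10 genes in the 7 tumor states, as log2(CPM + 1) on the y axis of each panel, with 1 point per sample (blue, vehicle A to C; red and orange, Xevinapant A and B) and a bar at the mean of the 5 samples. Fgfr3 stood apart in AC-like cells, Pdgfra was highest in committed OPC-like cells and Erbb3 in oligodendrocyte-like cells in each of the 5 samples.

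Pdgfra (PDGFRα; chromosome 5, 75152292 to 75198215 in mm10) had its highest tumor levels in the OPC-like gates. Its level in all tumor cells was 230.2, 227 and 284 CPM in the vehicle samples and 274 and 160.5 in the Xevinapant samples. It was highest in committed OPC-like cells, at 408, 464 and 549 against 412 and 419 CPM, and this range did not overlap that of the next state. The difference from the other states was 2.59-fold (log2 difference 1.38 ± 0.13 (SE), adjusted p = 6.89e-10). OPC-like cells followed with 339, 347 and 377 against 355 and 233 CPM, and cycling OPC-like cells lay within their range at 242 to 363 CPM. Pdgfra also passed as higher in OPC-like (log2 difference 0.81 ± 0.14, adjusted p = 2.35e-05), cycling OPC-like (0.79 ± 0.14, adjusted p = 1.13e-05) and MES-like cells (0.46 ± 0.14, adjusted p = 0.00579). In AC-like cells it dropped to 99.2, 92.4 and 86.0 against 73.6 and 64.3 CPM, with no overlap with any OPC-like gate (log2 difference -1.37 ± 0.17 (SE), adjusted p = 1.39e-08). Oligodendrocyte-like cells (-0.75 ± 0.22, adjusted p = 0.00745, a call lost in thinned cells, adjusted p = 0.163) and NPC-like cells (-1.32 ± 0.18, adjusted p = 2.50e-07) were lower too. Their ranges overlapped each other and were wide, 51.0 to 181 CPM and 34.4 to 195 CPM, the first from 126 cells in all.

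After thinning each cell to 2000 UMIs, so that shares of cells compare at equal depth, 51.6% ± 5.59 of committed OPC-like cells (SD, n = 5) held a Pdgfra UMI, against 42.3% ± 5.84 of OPC-like and 13.3% ± 2.94 of AC-like cells. The share in all tumor cells was 30.3% ± 5.38, and it was 1.68% ± 1.29 in microglia, which should lack the gene. Before thinning the tumor share was 65.6%, at a median of 13445 UMIs per tumor cell and 8538 per microglial cell. Outside the tumor Pdgfra was carried by fibroblasts, a cell type that uses it in most tissues, at 332, 275 and 273 against 353 and 259.8 CPM. Fibroblasts exceeded tumor cells (log2 difference 1.12 ± 0.17 (SE), adjusted p = 2.00e-06), by less without TMM scaling (0.37, adjusted p = 0.0412). The tumor marker list stood at 5.12% of its tumor level there, a share that the gates limit, and the part of tumor RNA in the fibroblast level was not tested. Microglia, macrophages and endothelial cells held 6.04%, 8.20% and 7.69% of the tumor level, beside 7.26%, 5.27% and 9.03% for the tumor marker list, and how much of it came from free RNA was not tested.

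Pdgfrb (PDGFRβ; chromosome 18, 61045150 to 61085061) was nearly absent from tumor cells. The whole tumor gate gave 1.03, 0.426 and 0.81 CPM in the vehicle samples and 1.63 and 1.25 in the Xevinapant samples. In the 14 mural cells, the pericytes and smooth muscle cells around vessels, it was 2099, 1542 and 2059 against 2552 and 2069 CPM, from 265 UMIs. All mural samples were far above all others, but with 14 cells in 5 samples no test was made. Fibroblasts held 563, 252 and 258 against 415 and 408 CPM, a difference from tumor cells of 9.27 ± 0.23 (log2, adjusted p = 1.63e-21). Within the tumor the AC-like cells stood out with 6.71, 2.11 and 5.87 against 4.46 and 5.69 CPM, from 218 UMIs. That level was 15.4-fold that of the other states (log2 difference 3.95 ± 0.25 (SE), adjusted p = 6.99e-15), and it did not overlap the ranges of the OPC-like gates. Pdgfrb reached the count filter only through the AC-like samples, so this call is tied to the filter.

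Markers of mural cells moved with Pdgfrb in AC-like cells, and their part in the result was not tested. The 9 mural markers summed to 591 to 737 CPM there, against 34.0 to 61.8 CPM in OPC-like cells and 12316 to 38485 CPM in mural cells. Most of the AC-like sum came from Notch3 (354 to 456 CPM) and Tagln (124 to 251), while Rgs5, which defines pericytes, was at 0.248 to 1.21 against 1408 to 8526 in mural cells, and Kcnj8, Abcc9, Higd1b and Myh11 were each at or below 1.04. MES-like cells were also higher for Pdgfrb (log2 difference 1.27 ± 0.37 (SE), adjusted p = 0.00346), at a level of only 0.199 to 2.22 CPM, and this call was lost without Xevinapant B (adjusted p = 0.0585).

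Pdgfa, which encodes the A chain that binds PDGFRα, was present in every tumor state, and its level differed in 4 of the 7 (2 higher, 2 lower). Tumor cells held 83.8, 68.9 and 76.3 CPM in the vehicle samples and 82.2 and 72.7 in the Xevinapant samples, the narrowest spread between samples of the members with over 10 CPM. Oligodendrocyte-like cells were highest, at 166, 179.9 and 185 against 158 and 281 CPM, 2.78-fold above the other states (log2 difference 1.48 ± 0.13 (SE), adjusted p = 8.83e-11). Their lowest sample was above the highest of every other state. MES-like cells were slightly higher (0.39 ± 0.09, adjusted p = 4.37e-04) and AC-like cells slightly lower (-0.36 ± 0.10, adjusted p = 0.00153). NPC-like cells were lowest, at 39.1, 24.9 and 47.9 against 36.9 and 24.9 CPM (log2 difference -1.53 ± 0.13 (SE), adjusted p = 2.13e-11). Outside the tumor the level was 68.6 to 174 CPM in fibroblasts, 53.3 to 82.1 CPM in microglia and 39.5 to 133 CPM in macrophages, and these ranges overlapped that of tumor cells. The fibroblast difference passed the test (1.28 ± 0.24, adjusted p = 5.78e-05) but not without TMM scaling, which moved the median of all genes in that comparison by -0.77 on the log2 scale. Endothelial cells were lower (-1.41 ± 0.40, adjusted p = 0.00467). The 14 mural cells held 98.5 to 662 CPM.

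Pdgfb, the B chain, which vessels use to recruit pericytes, had its highest level in endothelial cells and was also held by microglia and macrophages. Endothelial cells held 683, 598 and 657 CPM in the vehicle samples and 765 and 389 in the Xevinapant samples. The tumor gate held 1.14, 0.758 and 0.764 against 1.51 and 1.53 CPM, so the endothelial level was 665-fold higher (log2 difference 9.38 ± 0.35 (SE), adjusted p = 5.56e-18), and no endothelial sample overlapped any other gate. A Pdgfb UMI was present in 54.1% ± 13.5 of thinned endothelial cells, 18.1% ± 5.59 of thinned microglia and 0.297% ± 0.123 of thinned tumor cells. Microglia were next with 126, 79.3 and 128 against 74.6 and 131 CPM (log2 difference 7.06 ± 0.32 (SE), adjusted p = 1.34e-16), followed by macrophages with 108, 27.2 and 195 against 30.5 and 75.2 CPM (log2 difference 6.51 ± 0.40 (SE), adjusted p = 1.05e-13). The macrophage values came from 56, 16 and 35 cells in the vehicle samples and 269 and 106 in the Xevinapant samples. The 9 endothelial markers summed to 14.4 to 33.2 CPM in microglia and 27.2 to 69.0 CPM in macrophages, against 11472 to 14884 CPM in endothelial cells. T and NK cells held 50.6 to 122 CPM.

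In the tumor states Pdgfb passed as higher in NPC-like cells (2.18 ± 0.33, adjusted p = 1.29e-06) and AC-like cells (1.96 ± 0.26, adjusted p = 8.62e-08), at levels of only 1.59 to 6.41 CPM and 1.73 to 3.96 CPM and from 51 and 110 UMIs. Beside these, the endothelial markers summed to 15 to 18.0 CPM in NPC-like and 17.1 to 24.6 CPM in AC-like cells, and to 15.8 to 19.4 CPM in all tumor cells. The immune markers summed to 32.9 to 58.5 CPM in NPC-like and 16.3 to 19.8 CPM in AC-like cells. Their part in the result was not tested. Pdgfb reached the count filter of the state fit only through the NPC-like and AC-like samples, so these calls are tied to the filter. The A chain and PDGFRα had their highest tumor levels in different states, oligodendrocyte-like and committed OPC-like cells.

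**Figure D2:**
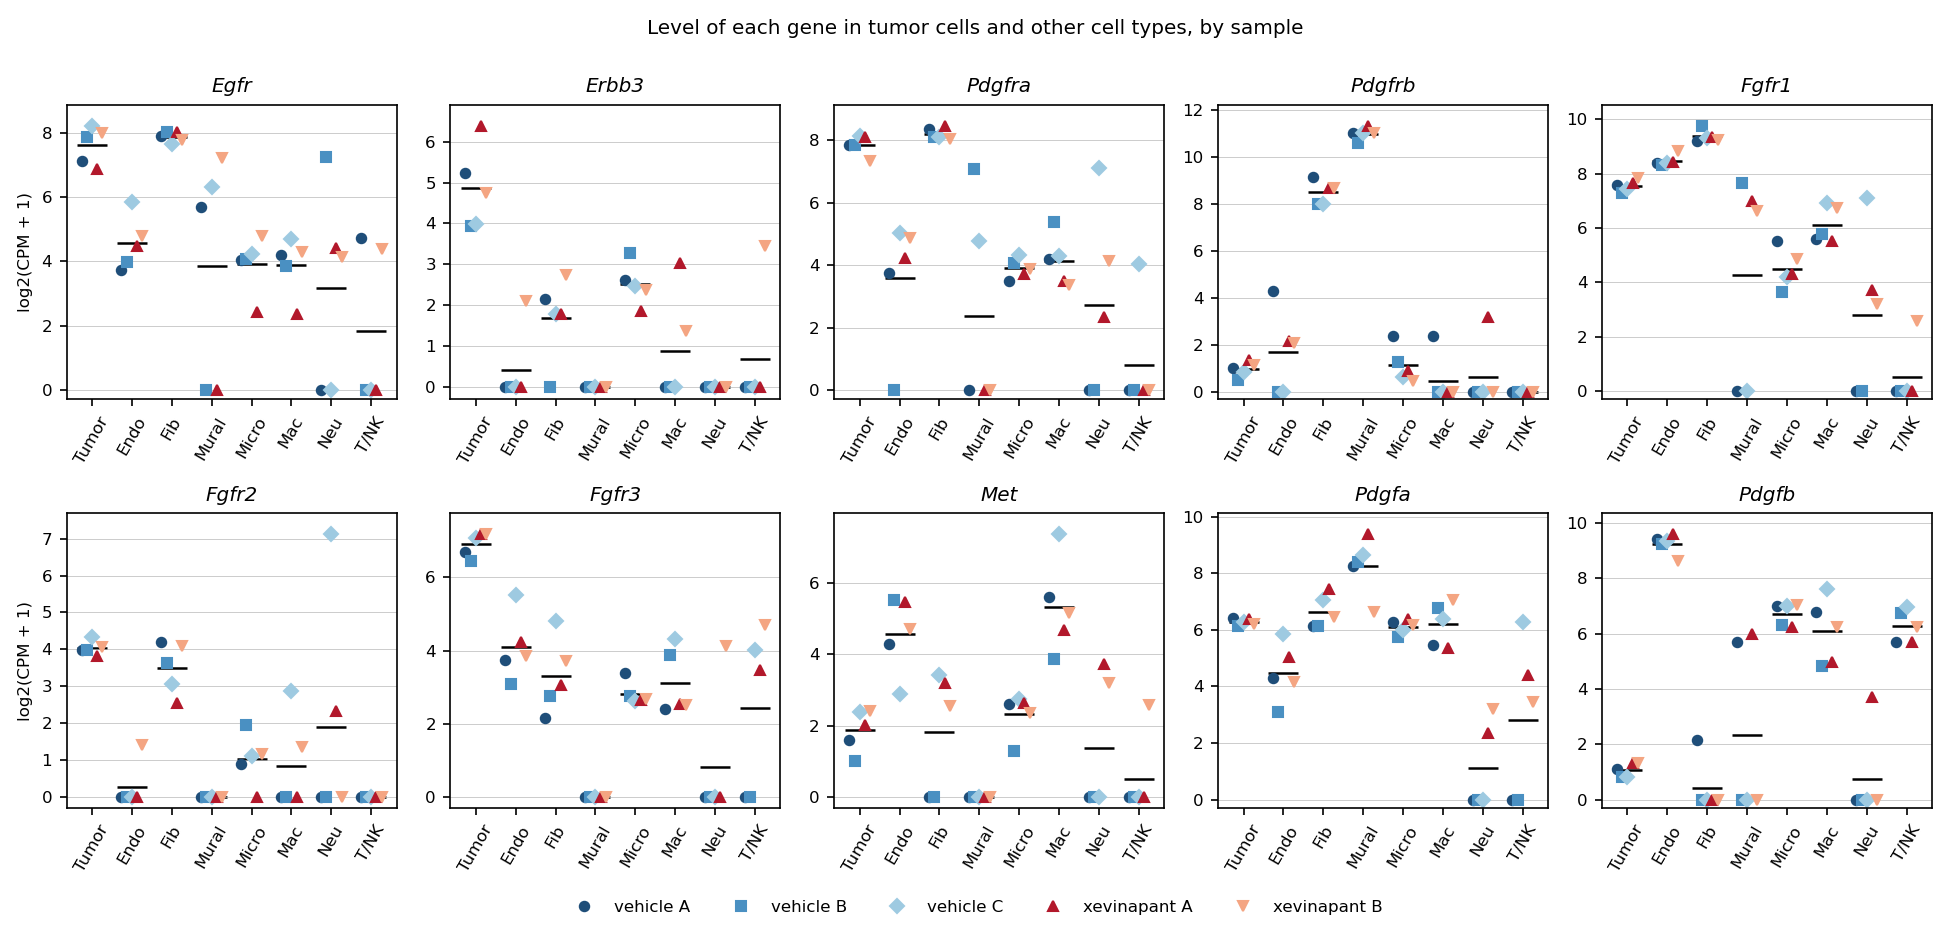
Level of the 10 genes in all tumor cells and 7 other cell types, as log2(CPM + 1), with 1 point per sample and a bar at the mean of the 5 samples. Pdgfb peaked in endothelial cells (388.8 to 765 CPM) and Pdgfrb in the 14 mural cells (1542 to 2552), and points at 0 are samples with no UMI of the gene in that gate.

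Egfr, the EGF receptor (chromosome 11, 16752203 to 16918158), varied widely between samples. Its level in all tumor cells was 139, 236 and 299.6 CPM in the vehicle samples and 118 and 258 in the Xevinapant samples. Vehicle C was the highest sample in 7 of 7 states and Xevinapant A the lowest in 6 of 7, while the groups overlapped in all tumor cells. Within samples, OPC-like cells held 134, 237 and 357 against 131 and 279 CPM and passed as higher than the other states (log2 difference 1.09 ± 0.12 (SE), adjusted p = 2.56e-08). AC-like cells had the smallest spread, 161, 176 and 209.9 against 176 and 204 CPM (log2 difference 1.02 ± 0.13 (SE), adjusted p = 2.27e-08). Cycling OPC-like (1.0 ± 0.12, adjusted p = 2.76e-08) and MES-like cells (0.71 ± 0.13, adjusted p = 1.79e-05) were higher as well. The mean levels of these 4 states, 166 to 228 CPM, were within the spread of their samples.

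Egfr was lower in committed OPC-like cells, at 49.4, 78.3 and 101 against 45.0 and 97.5 CPM (log2 difference -0.75 ± 0.14 (SE), adjusted p = 7.35e-05). Pdgfra had its peak in that same state, so that the receptor pair diverged there. Oligodendrocyte-like cells were lowest at 14.4, 58.4 and 66.5 against 6.95 and 25.8 CPM (log2 difference -2.11 ± 0.28 (SE), adjusted p = 3.97e-07), and NPC-like cells held 30.7, 46.1 and 114 against 30.5 and 104 CPM (log2 difference -0.96 ± 0.17 (SE), adjusted p = 1.31e-05). Fibroblasts had 238, 263 and 202 against 262 and 220.4 CPM, above tumor cells by 1.07 ± 0.22 on the log2 scale (adjusted p = 1.47e-04), a call that was lost without TMM scaling. Endothelial cells, microglia and macrophages held 12.6%, 7.61% and 7.51% of the mean tumor level. In thinned cells an Egfr UMI was found in 27.3% ± 8.20 of tumor cells and 3.18% ± 2.41 of microglia.

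Erbb3, the neuregulin receptor with an impaired kinase of its own (chromosome 10, 128567523 to 128589652), followed the oligodendrocyte lineage. Oligodendrocyte-like cells held 148, 143 and 147 CPM in the vehicle samples and 248 and 162 in the Xevinapant samples, with no overlap with the next state (log2 difference 3.03 ± 0.25 (SE), adjusted p = 2.50e-11). Committed OPC-like cells held 98.1, 46.6 and 72.9 against 139 and 72.2 CPM (log2 difference 1.92 ± 0.17 (SE), adjusted p = 7.30e-11). OPC-like cells held 48.3, 18.6 and 11.3 against 106 and 38.3 CPM, only slightly above the mean of the other states (log2 difference 0.46 ± 0.17 (SE), adjusted p = 0.0367), and this call was lost without vehicle A, vehicle B, Xevinapant A or Xevinapant B (adjusted p = 0.0585 to 0.202). It was low in AC-like (1.44 to 18.3 CPM, -2.11 ± 0.26, adjusted p = 1.41e-08) and NPC-like cells (2.93 to 12.8 CPM, -3.22 ± 0.38, adjusted p = 1.18e-08). In the other cell types the highest sample reached 9.95 CPM, and Erbb3 did not pass the count filter of that comparison. In all tumor cells the level was 36.7, 14.4 and 15 against 83.0 and 26.0 CPM, and Xevinapant A was the highest sample in 7 of 7 states. That sample also had more committed OPC-like cells for its size. The state held 562, 349 and 510 cells in the vehicle samples and 694 and 761 in the Xevinapant samples. All tumor cells numbered 5911, 4967 and 9092 in the vehicle samples and 3912 and 8357 in the Xevinapant samples. The part of these cell numbers in the Erbb3 level was not tested.

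The FGF receptors had their highest tumor levels in AC-like cells. Fgfr3 (chromosome 5, 33721674 to 33737068) held 474, 406 and 558 CPM in the vehicle samples and 486 and 467 in the Xevinapant samples in AC-like cells. OPC-like cells held 89.8, 80.0 and 97.3 against 133 and 107 CPM, and no other state overlapped the AC-like range. The AC-like difference was 6.43-fold (log2 difference 2.68 ± 0.09 (SE), adjusted p = 1.28e-21). Thinned AC-like cells held an Fgfr3 UMI in 53.2% ± 4.53, thinned tumor cells of all states in 18.9% ± 2.55 and microglia in 1.11% ± 0.49. Oligodendrocyte-like, MES-like, committed OPC-like and OPC-like cells overlapped one another in their levels and did not pass the test (under stricter gates it was called lower in committed OPC-like cells, adjusted p = 4.71e-04, and oligodendrocyte-like cells, adjusted p = 0.00711), cycling OPC-like cells were slightly lower (-0.39 ± 0.11, adjusted p = 0.00408, a call lost under stricter gates, adjusted p = 0.0978), and NPC-like cells were lowest at 20.1 to 53.0 CPM (-1.73 ± 0.16, adjusted p = 9.27e-11). All 4 tested cell types outside the tumor were below tumor cells, with log2 differences from -3.90 to -2.56 and adjusted p from 6.32e-14 to 7.10e-08.

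Fgfr1 (chromosome 8, 25513654 to 25575718) was more widely shared. It was high in AC-like cells, at 445, 391 and 352 CPM in the vehicle samples and 534 and 499 in the Xevinapant samples (log2 difference 1.89 ± 0.09 (SE), adjusted p = 8.28e-18). MES-like cells held 287, 179.9 and 210.4 against 258 and 359 CPM, also above the other states (log2 difference 0.95 ± 0.10 (SE), adjusted p = 1.06e-09). The OPC-like level was 154, 140.2 and 153 against 159 and 165 CPM, and it did not overlap the MES-like range. Committed OPC-like (-0.54 ± 0.11, adjusted p = 1.85e-04), oligodendrocyte-like (-1.0 ± 0.18, adjusted p = 4.06e-05) and NPC-like cells (-1.11 ± 0.13, adjusted p = 1.76e-08) were lower. Fibroblasts were above every other gate at 584, 864 and 629 against 649.9 and 600.1 CPM (log2 difference 2.57 ± 0.22 (SE), adjusted p = 8.99e-11), and endothelial cells held 335, 321 and 332 against 339.7 and 455 CPM (log2 difference 1.22 ± 0.22 (SE), adjusted p = 4.27e-05). All tumor cells together held 188, 156 and 171 against 202 and 226 CPM.

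Fgfr2 (chromosome 7, 130162451 to 133123350) had its highest tumor levels in AC-like and oligodendrocyte-like cells. AC-like cells held 50.6, 82.4 and 79.2 CPM in the vehicle samples and 49.6 and 50 in the Xevinapant samples (log2 difference 2.24 ± 0.10 (SE), adjusted p = 8.31e-19). Oligodendrocyte-like cells held 46.7, 32.7 and 24.9 against 37.1 and 38.7 CPM (log2 difference 1.34 ± 0.21 (SE), adjusted p = 6.33e-06). These ranges did not overlap each other or those of the remaining states, whose mean levels were 8.97 to 14.7 CPM. Cycling OPC-like (-1.03 ± 0.12, adjusted p = 1.61e-08), OPC-like (-0.71 ± 0.12, adjusted p = 1.44e-05), committed OPC-like (-0.75 ± 0.13, adjusted p = 1.38e-05) and NPC-like cells (-0.88 ± 0.18, adjusted p = 7.90e-05) were lower. Fgfr2 was the only member higher in AC-like and in oligodendrocyte-like cells.

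Met, the receptor of hepatocyte growth factor (chromosome 6, 17463800 to 17573980), was sparse in tumor cells, at 2.01, 1.04 and 4.21 CPM in the vehicle samples and 3.03 and 4.38 in the Xevinapant samples. Macrophages held 47.4, 13.6 and 163 against 24.6 and 34.5 CPM, above tumor cells (log2 difference 4.51 ± 0.45 (SE), adjusted p = 1.66e-09), with vehicle C far above the other samples. Endothelial cells held 18.6, 44.8 and 6.38 against 42.9 and 24.9 CPM (log2 difference 3.58 ± 0.53 (SE), adjusted p = 2.83e-06). Both gates were small, with 56, 16 and 35 against 269 and 106 macrophages and 22, 19 and 30 against 47 and 71 endothelial cells. The lowest Met values in them thus rest on very few UMIs. Fibroblasts (1.75 ± 0.56, adjusted p = 0.00932) and microglia (1.11 ± 0.48, adjusted p = 0.0405) passed at levels of 0 to 9.75 CPM and 1.44 to 5.72 CPM, but the first call was lost without Xevinapant A (adjusted p = 0.17) and the second without any 1 of the 5 samples (adjusted p = 0.0609 to 0.137). In the tumor Met was higher in AC-like (1.61 ± 0.29, adjusted p = 1.16e-05) and MES-like cells (1.22 ± 0.30, adjusted p = 8.73e-04) and lower in the 3 OPC-like gates, with a highest sample of 21.0 CPM in any state. The MES-like call was lost without Xevinapant B (adjusted p = 0.0571), the OPC-like call without vehicle A (0.0513) and the committed OPC-like call without vehicle A or C or Xevinapant A or B (0.0764 to 0.181). Thinned tumor cells held a Met UMI in 0.657% ± 0.249.

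**Figure D3:**
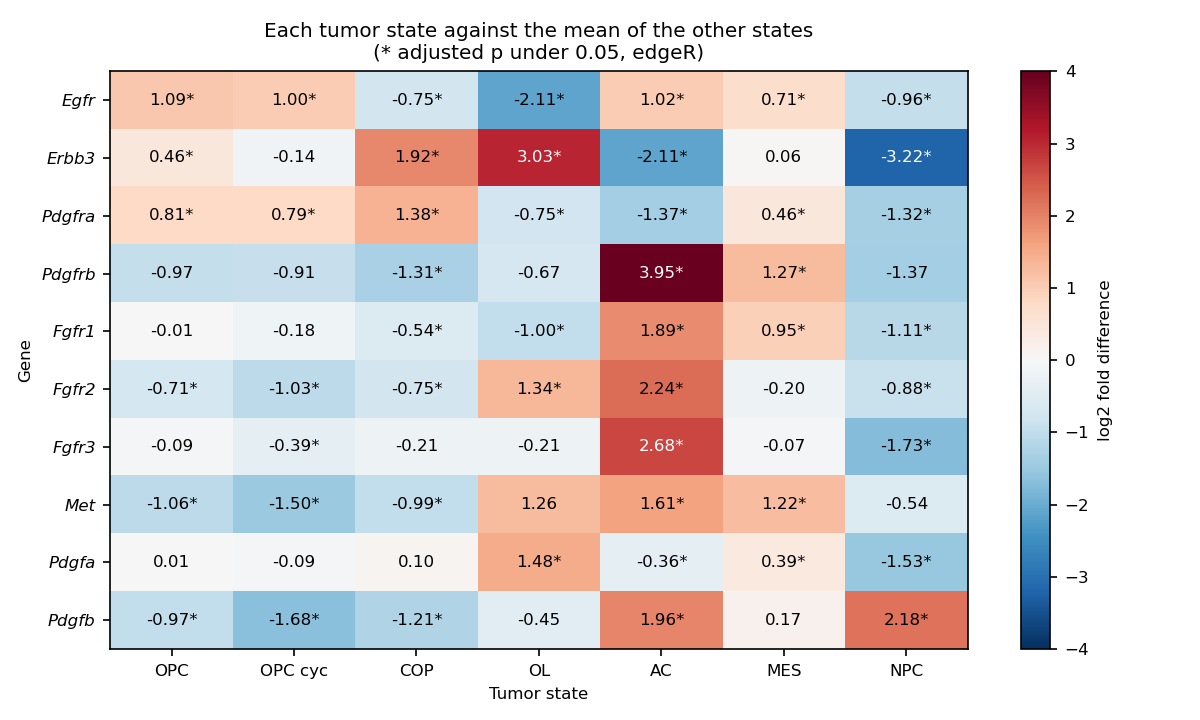
Difference of each tumor state (columns) from the mean of the other 6 states for the 10 genes (rows), printed and colored as the log2 fold difference from the edgeR fit, with an asterisk where the adjusted p was under 0.05. The AC-like column holds 10 asterisks, with Fgfr1, Fgfr2 and Fgfr3 at 1.89 to 2.68 and Pdgfra at -1.37, and Pdgfra and Egfr differ in sign in the committed OPC-like column.

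Against tumor cells, 30 of the 36 member contrasts with other cell types passed (14 higher, 16 lower). Pdgfrb, Pdgfb and Met, scarce in tumor cells, reached the count filter only through other cell types where they were higher, so their higher calls are tied to the filter. Endothelial cells had 9 of 9 tested members called, where 52.6% of 11039 genes were; fibroblasts had 7 (60.6%), microglia 7 (70.7%) and macrophages 7 (68.1%). Fibroblasts had 6 members higher (33.2% of all genes) and 1 lower (27.4%), Fgfr3, and endothelial cells 4 higher (26.5%) and 5 lower (26.2%). The endothelial Pdgfrb value (2.32 ± 0.86, adjusted p = 0.0262) rested on 6 UMIs, was lost without vehicle A (adjusted p = 0.232) and turned to -4.71 when cells were thinned. Without TMM scaling the median of all genes moved by -0.77 (fibroblasts) to -0.29 (endothelial cells) in these 4 comparisons, and 26 member contrasts passed. The calls lost were Egfr (0.32, adjusted p = 0.18), Pdgfa (0.53, adjusted p = 0.0546) and Met (0.98, adjusted p = 0.102) in fibroblasts and Met in microglia (0.59, adjusted p = 0.248).

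Genes around the members in the same signalling system were read from 5 lists of 74 genes, grouped by role (25 further ligands, 17 other receptors, 8 co-receptors and processing enzymes, 12 inhibitors and 12 adaptors). The genes named here were taken as those with the largest differences after the values were seen. In AC-like cells 6 of 12 tested ligands were higher and 2 lower, and 7 of 14 other receptors were higher and 2 lower, beside 33.7% and 37.3% of all genes. The ligands Fgf2 (log2 difference 2.89 ± 0.16) and Fgf1 (2.72 ± 0.27), which bind FGF receptors, and Pdgfd (2.45 ± 0.10), a ligand of PDGFRβ, were among those higher, as was the receptor Erbb2 (3.90 ± 0.17), the partner of ErbB3. Lrig1, an inhibitor of EGFR family receptors, was 4.47 ± 0.06 in AC-like cells. In MES-like cells 8 of 14 receptors, 8 of 12 inhibitors and 7 of 12 adaptors were higher and none of these lower, beside 30.4% of all genes higher, and the inhibitors included Errfi1 (2.55 ± 0.10) and Spry2 (1.66 ± 0.10), which feed back on receptor signalling. In committed OPC-like cells 6 of 12 inhibitors were lower (21.5% of all genes) and none higher (21.8%), Spry2 at -1.36 ± 0.12 and Lrig1 at -1.14 ± 0.09, while the EGFR ligand Tgfa was 1.53 ± 0.09. NPC-like cells had 8 of 14 receptors lower (33% of all genes) and 4 higher (31.1%), with Ret, the GDNF receptor, at 6.56 ± 0.39. Only 12 of the 25 ligands and 14 of the 17 other receptors passed the count filter across states. A scarce gene passes it only through the samples where it is higher, so the higher counts of ligands and receptors do not show an excess. Calls as higher of such genes, which may include Ret, are tied to the filter. Fibroblasts had 6 of 7 tested ligands above tumor cells (33.2% of all genes), among them Nrg1 (9.45 ± 0.54), a ligand of ErbB3, and Hgf (7.93 ± 0.33), the ligand of Met. The rest of the 25 listed ligands were not tested there. A gene scarce in tumor cells reaches the count filter only through a cell type where it is higher, so this count does not show an excess of ligands.

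Single tumor cells often held more than 1 of the receptors. At 2000 UMIs per cell, 26.7% ± 3.16 of tumor cells (SD, n = 5 samples) had no UMI of the 7 receptors other than Pdgfrb, 40.9% ± 1.16 had UMIs of a single receptor, 24.3% ± 1.87 of a pair and 8.05% ± 1.89 of 3 or more. Fgfr3 was present in 24.2% ± 3.24 of cells with a UMI of Fgfr1 and 16.7% ± 2.38 of cells without one, higher in 5 of 5 samples. Within AC-like cells the shares were 56.4% ± 6.29 of cells with a UMI of Fgfr1 and 49.4% ± 3.24 of cells without one, again higher in 5 of 5 samples. Within OPC-like and cycling OPC-like cells together they were 16.8% ± 2.48 of cells with a UMI of Fgfr1 and 16% ± 2.13 of cells without one, higher in 3 of 5 samples, so the link was not seen there.

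Pdgfra was present in 26.1% ± 6.12 of cells with a UMI of Egfr and 31.7% ± 5.21 of cells without one, lower in 5 of 5 samples. In OPC-like and cycling OPC-like cells alone the shares were 37.5% ± 6.66 of cells with a UMI of Egfr and 43.4% ± 6.09 of cells without one, lower in 4 of 5. Within AC-like cells the Pdgfra shares differed little, 13.1% ± 3.90 with Egfr and 13.4% ± 2.65 without, lower in 4 of 5. Erbb3 was found in 1.71% ± 1.17 of cells with a UMI of Egfr and 6.38% ± 3.88 of cells without one, lower in 5 of 5 samples. The gap was also seen within OPC-like and cycling OPC-like cells, with 2.23% ± 1.46 of cells with a UMI of Egfr and 7.00% ± 4.29 of cells without one, lower in 5 of 5. Within AC-like cells the Erbb3 shares were low, 0.731% ± 0.845 with Egfr and 1.54% ± 1.06 without, lower in 4 of 5. These shares come from few UMIs per cell and describe detection in the same cell, without a test.

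**Figure D4:**
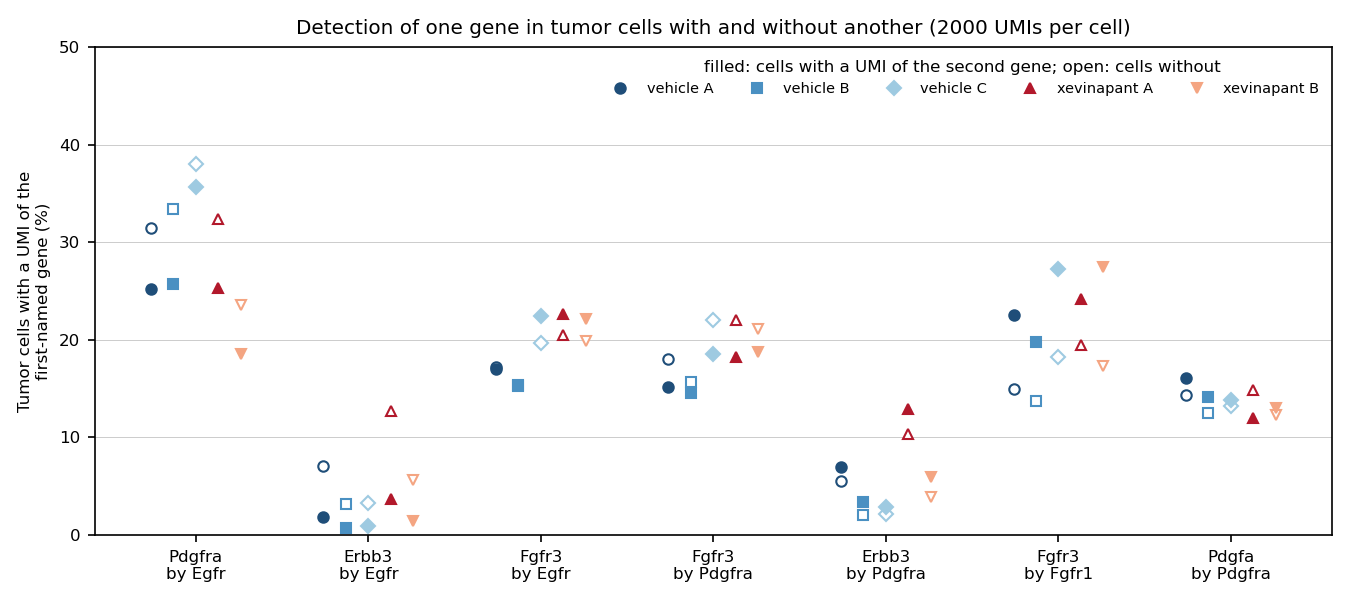
Share of thinned tumor cells with a UMI of the first gene named in each pair, in percent on the y axis. Filled points are cells with a UMI of the second gene and open points cells without one, with 1 of each per sample. Erbb3 was below in cells with Egfr in 5 of 5 samples, and Fgfr3 above in cells with Fgfr1 in 5 of 5 samples of all tumor cells.

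Other genes tracked the members across 14 gates (7 states and 7 other cell types, of which neutrophils, T and NK cells and mural cells had samples with under 10 cells), by Pearson correlation of mean log2 levels among 12287 genes, a description over gates that share libraries. The marker genes of the cell types and states were left out of the genes compared, so none of them could be named here. Among the rest, Erbb3 ran closest with Srpk3, Cldn11 and S100b (r = 0.97 to 0.99), of which Cldn11 is a myelin tight junction gene. Fgfr3 ran with Itgb8, Sv2c and Mmd2 (0.97 to 0.98), Fgfr1 with Trpm4, Plpp3 and Tmem43 (0.95 to 0.96) and Fgfr2 with Dok6, Nkain4 and Dnaic2 (0.92 to 0.93). Egfr ran with Gpc6, Chrdl1 and Ndn (0.94 to 0.96) and Pdgfra with Osr2, Gfpt2 and Lgr5 (0.95 to 0.97). Pdgfrb ran with S1pr3, Naalad2 and Aoc3 (0.98 to 0.99), Pdgfa with Adam9, Ttyh2 and Inppl1 (0.93 to 0.94), Pdgfb with Pparg, Cd38 and Hhex (0.92 to 0.94) and Met with Ifih1, Zfand2a and Rgl1 (0.83 to 0.86). Among the members themselves, Egfr and Pdgfra were the most alike (r = 0.91) and Fgfr2 and Pdgfb the least (r = -0.71).

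The treatment comparison asked whether the tumors of Xevinapant mice carried other receptor levels than those of vehicle mice after a week. No member passed in tumor cells. No gene of 14232 did (0%), with 1576 genes and 0 members at an unadjusted p under 0.05, and DESeq2 called 232 genes (1.63%) and 0 members. With each of the 8 matrices counted as 1 sample, 610 of 13776 genes (4.43%) and 0 members were called in tumor cells. Within the tumor states 3 member contrasts were called under that setting. The share of all genes called there is not given here, so these 3 cannot be read against a background. In simulated data of the same size, 57% of genes changed by 1 on the log2 scale were recovered and 88.4% of genes changed by 2. Unchanged genes were called as well, 18 at a change of 1 and 13 at a change of 2, with 200 and 198 changed genes tested. The median log2 difference (Xevinapant minus vehicle) of the members was 0.32, beside 0.0043 for all genes. Bulk sums over a gate cannot tell fewer cells with a transcript from fewer transcripts per cell.

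Egfr differed by -0.32 ± 0.40, adjusted p = 0.768, with groups that overlapped, since Xevinapant A was the lowest and Xevinapant B the second highest sample. Erbb3 had the largest difference, 1.27 ± 0.56, adjusted p = 0.455, carried by Xevinapant A, with Xevinapant B between the vehicle samples. Pdgfra was -0.23 ± 0.24, adjusted p = 0.711 and Pdgfa -0.029 ± 0.13, adjusted p = 0.942, both overlapping. Fgfr1 (0.27 ± 0.12, adjusted p = 0.46) and Fgfr3 (0.36 ± 0.18, adjusted p = 0.481) were higher in every Xevinapant sample than in every vehicle sample, as were Pdgfb (0.73 ± 0.34, adjusted p = 0.465) and Pdgfrb (0.88 ± 0.43, adjusted p = 0.477), the last pair at levels under 2 CPM. In the same gate the 7 fibroblast markers, each of them detected in every sample, summed to 65.9, 25.0 and 40.1 against 222 and 79.9 CPM, and the 9 mural markers to 86.9, 78.1 and 120.2 against 108 and 122 CPM. The 9 endothelial markers summed to 17.9, 16.1 and 19.4 against 15.8 and 18.3 CPM, and the 7 macrophage markers to 11.5, 9.40 and 11 against 44.0 and 16.1 CPM. State markers moved in this gate too, with AC-like markers at 869.9, 565 and 969.8 against 1074 and 1522 CPM, MES-like markers at 713, 668 and 569 against 1293 and 799 CPM and cycling markers at 2218, 2267 and 2169 against 1478 and 1764 CPM, none of them overlapping between the groups. The part of these markers' cells in the 4 results was not tested. These 4 of 10 members without overlap, all higher, stand beside 18.2% of 12148 genes that were higher without overlap and 30.6% without overlap in either direction. Fgfr2 was -0.24 ± 0.20, adjusted p = 0.644 and Met 0.55 ± 0.56, adjusted p = 0.707.

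Within the tumor states 0 of 55 tested member contrasts passed, where the share of all genes called was 0% in OPC-like, cycling OPC-like, committed OPC-like, AC-like and MES-like cells, 0.0463% in oligodendrocyte-like and 0.0916% in NPC-like cells (0.0458% in each direction). The values came closest for Erbb3 in MES-like cells, at 20.4, 15.1 and 15.8 against 56.6 and 34.6 CPM (1.38 ± 0.25, adjusted p = 0.109), where both Xevinapant samples were above all vehicle samples. Marker lists moved in this gate as well. OPC-like markers averaged 2700 CPM in the vehicle and 3143 in the Xevinapant samples, AC-like markers 399.5 and 628, fibroblast markers 52.5 and 201, and cycling markers 1707 and 1299. The part of these values in the Erbb3 result was not tested. Pdgfra in NPC-like cells was 141, 70.0 and 195 against 48.1 and 34.4 CPM (-1.80 ± 0.41, adjusted p = 0.145), and the highest Xevinapant sample was under the lowest vehicle sample. It was called under 6 of 15 other settings, and Erbb3 in MES-like cells under 4 of 15. For each gene these include both settings that count every matrix as 1 sample, with the joined pairs split. The shares of all genes called under those settings are not given here, so these counts cannot be read against a background. Pdgfra had a negative difference in 7 of 7 states and Erbb3 a positive one in 6 of 6 tested, none of them passing. Beside the NPC-like value, Pdgfra was -1.26 ± 0.26 in oligodendrocyte-like cells (adjusted p = 0.177) and -0.42 ± 0.13 in AC-like cells (adjusted p = 0.703). Xevinapant B was the lowest sample for Pdgfra in 5 of 7 states, and Xevinapant A the highest for Erbb3 in 7 of 7. Fgfr3 in committed OPC-like cells was 0.50 ± 0.13, adjusted p = 0.208. It was called under 4 of 15 settings, again including both with the joined pairs split and without a background. Fgfr3 was higher without overlap in 4 of 7 states (OPC-like, cycling OPC-like, committed OPC-like and oligodendrocyte-like), where 16.5%, 18.5%, 18.2% and 12.4% of all genes were. In the other cell types 0 of 17 contrasts passed, beside 0.0134% of all genes in fibroblasts and 0% in endothelial cells, microglia and macrophages. Without a filter on low counts 2 passed, Pdgfb and Met in macrophages. The share of all genes called in macrophages without the filter is not given here, so these 2 cannot be read against a background. In the fit with the filter Pdgfb was -1.38 ± 0.50, adjusted p = 0.529 and Met -1.55 ± 0.56, adjusted p = 0.529 in macrophages, with vehicle B below both Xevinapant samples for each gene. Vehicle B held only 16 macrophages with 73573 UMIs in all, so its values rest on very few UMIs of these genes. The make-up of this gate moved too. No gate was set for dendritic cells or monocytes, so such cells can be counted in this gate. Microglia markers averaged 876 CPM in the vehicle and 388 in the Xevinapant samples, and dendritic cell markers 2693 and 1846. Monocyte markers averaged 808 and 1786, and macrophage markers 9110 and 13193. The part of these values in the 2 results was not tested.

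**Figure D5:**
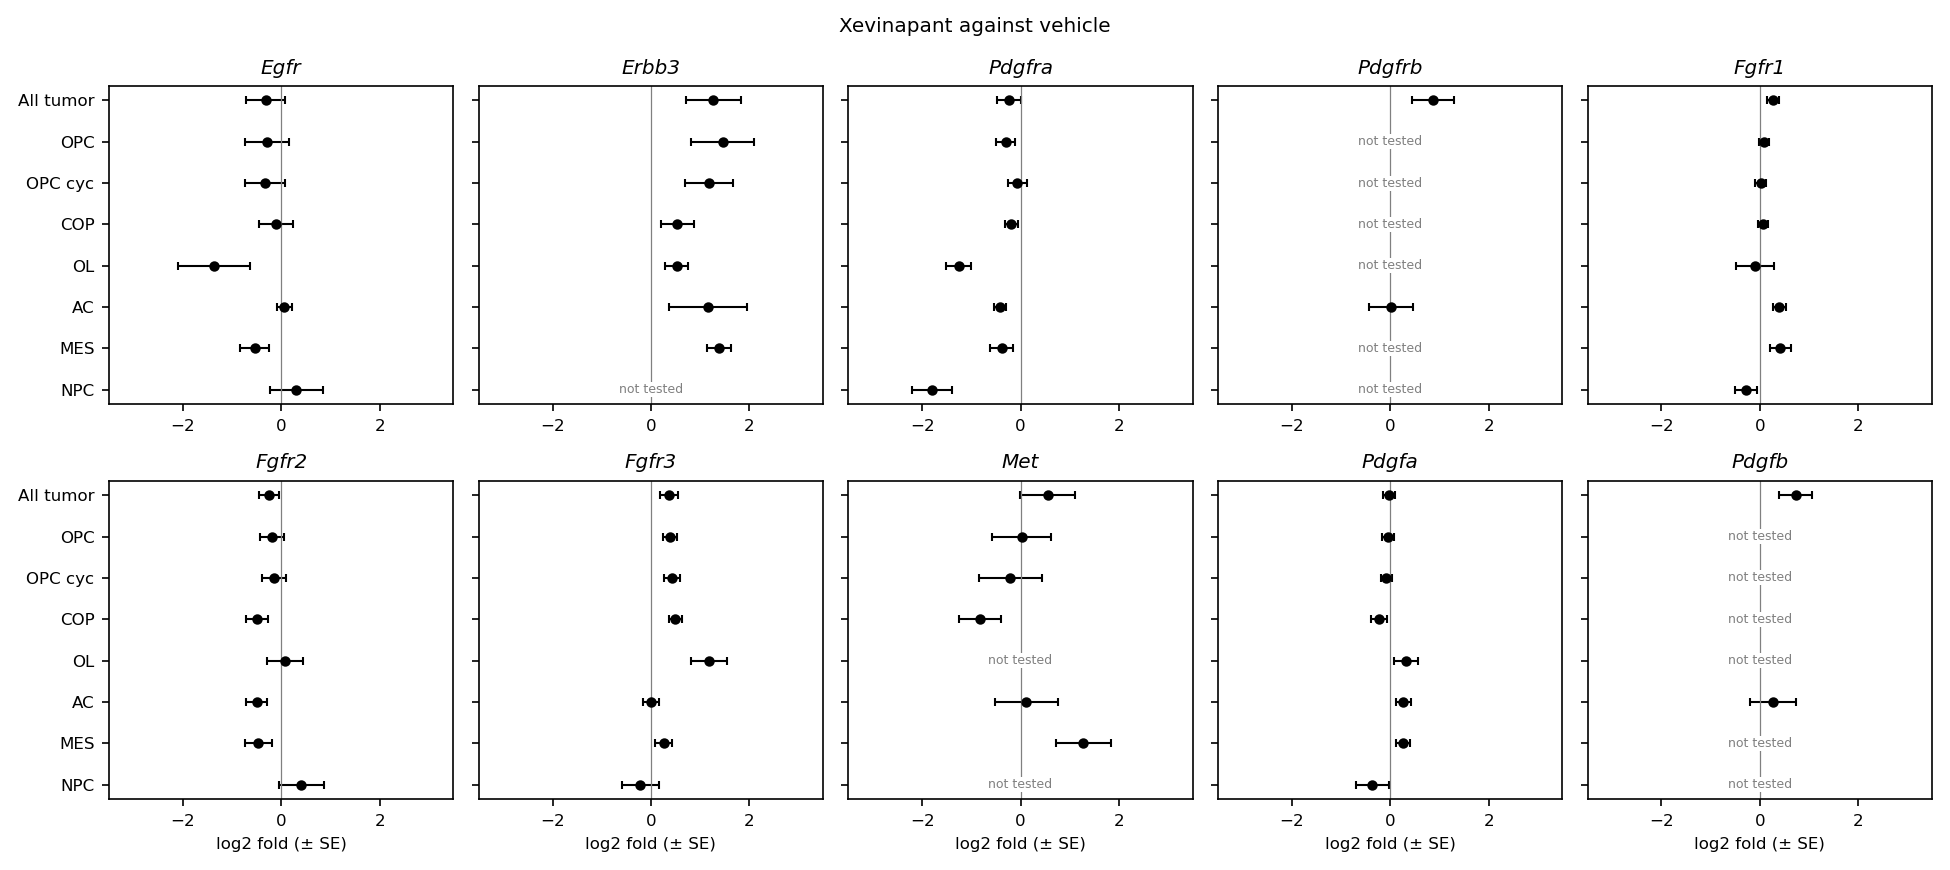
Difference between Xevinapant (n = 2) and vehicle (n = 3) samples for the 10 genes in all tumor cells and in each state, as the edgeR log2 difference (x axis, Xevinapant minus vehicle) with its standard error; the y axis names the gate. No point passed an adjusted p of 0.05, and Pdgfra in NPC-like cells lay at -1.80.

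The difference in response between each state and OPC-like cells was tested as an interaction. Of 60 member contrasts 1 passed. Pdgfra differed more in NPC-like than in OPC-like cells, by -1.37 ± 0.32, adjusted p = 0.02 on the log2 scale, where 3.23% of 13255 genes passed (1.98% lower). OPC-like cells held 339, 347 and 377 against 355 and 233 CPM, where Xevinapant A lay within the vehicle range, and both NPC-like Xevinapant samples lay below all vehicle samples. The call was lost without vehicle A (adjusted p = 0.107), vehicle C (0.123), Xevinapant A (0.0778) or Xevinapant B (0.228). For oligodendrocyte-like against OPC-like cells the Pdgfra value was -0.94 ± 0.43, adjusted p = 0.584. The NPC-like gate held 146, 100 and 81 cells in the vehicle samples and 35 and 303 in the Xevinapant samples, and its make-up moved with treatment. Its OPC-like markers summed to 1743, 1063 and 2632 CPM in the vehicle samples and 1023 and 800.4 in the Xevinapant samples, and its NPC-like markers to 1636, 1759 and 1306 CPM in the vehicle samples and 2305 and 3127 in the Xevinapant samples. Its AC-like markers summed to 500.2, 523 and 615 CPM in the vehicle samples and 784 and 1238 in the Xevinapant samples, and its cycling markers to 919, 1425 and 1322 CPM in the vehicle samples and 654 and 874 in the Xevinapant samples, without overlap between the groups in each of the 4 lists. The part of these values in the Pdgfra result was not tested.

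The share of thinned tumor cells with a UMI gave no treatment difference that the design could call, since 3 samples against 2 allow no exact two-sided permutation p below 0.2. The exact p of the 10 members ran from 0.2 to 0.6 (0.57 to 0.6 after Benjamini-Hochberg adjustment over the 10).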

How the data were processed

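Single cells from orthotopic tumors were fixed and profiled with 10X probe sets, and the authors deposited raw UMI counts per gene and barcode as 4 matrices per group, without normalization. Per the file headers they were made with cellranger 7.1.0, while the labels name Cell Ranger v3.0 and mm10. Deposited barcodes were kept with at least 200 genes, at most 10% mitochondrial UMIs, a complexity of at least 0.8, no doublet call (Scrublet in scanpy 1.11.5, 0.8% per 1000 cells) and at least 1000 UMIs. Cells were gated by marker UMIs with limits set with the data in view. Counts were summed per sample and gate (at least 10 cells per sample) and tested with edgeR 4.0.16 in R 4.3.3, by the quasi-likelihood test with TMM scaling, filterByExpr and Benjamini-Hochberg adjustment over all genes (threshold 0.05). DESeq2 1.42.0 was an alternative. Detection used cells thinned to 2000 UMIs, which left out 988 vehicle and 875 Xevinapant gated cells. Adjusted p-values in the text are from edgeR unless DESeq2 is named. The test was checked on simulated counts. The members, gene lists and tests were chosen with earlier results of these data known. All 10 members were named, and for each the 3 genes most alike across gates, with the marker genes of the gates left out. Each matrix file of the Xevinapant sample carries the word vehicle in its name, and the sample label was followed. Gene coordinates are from GENCODE on mm10 (GRCm38), in which all 10 identifiers matched, and promoters from RefSeq. The alternatives were each matrix as 1 sample with and without a block by matrix number, DESeq2, no TMM, no count filter, no doublet removal, a 5% mitochondrial limit, stricter gates, thinned cells, leaving out each sample, and, chosen after seeing the data, leaving out barcodes found in both groups. UMI counts limit the precision to counting error plus the spread between samples.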

Additional observations from a re-analysis of the deposited data

Results flagged for a closer look

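Pdgfra in NPC-like cells was flagged because its response to Xevinapant differed from that in OPC-like cells in a test of the difference itself. The log2 difference between the responses was -1.37 ± 0.32 (SE), with an edgeR adjusted p of 0.02, and over 9 other settings it ran from -1.68 to -1.12 and was called in 5. Pdgfra in NPC-like cells was 141, 70.0 and 195 against 48.1 and 34.4 CPM (vehicle against Xevinapant). The glial lineage markers of the same cells summed to 3806, 3180.4 and 5037 CPM in the vehicle samples and 2213 and 2266 in the Xevinapant samples. Xevinapant A held only 35 of these cells, and without it the adjusted p was 0.0778.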

How the results depend on the processing

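Of 1485 values recomputed under other settings for the member contrasts in tumor cells, across states and across cell types and for a few treatment contrasts picked within states and cell types with the values known, 1373 kept their direction and their side of the threshold, 47 kept the direction but lost the call, 25 gained one and 40 turned sign. Over all treatment contrasts within states, none of them a call, 55 of 808 values turned sign, in 25 of 55 contrasts. Within other cell types 25 of 242 values turned sign, in 13 of 17 contrasts, among them Egfr (-1.80 to 0.66) and Fgfr1 (-0.35 to 0.90) in microglia and Pdgfa in macrophages (-0.81 to 0.91). Over all tests of a differing response, 50 of 540 values turned sign, in 29 of 60 contrasts. The 50 member calls across states and the 30 across cell types stayed within 1.5 times that number under every setting run. For the treatment in tumor states, where 0 members were called, the number was 3 with each matrix as 1 sample, 4 with the matrix number as a replicate block, 3 with DESeq2, 7 with no filter on low counts and 1 in thinned cells, and 0 to 1 when 1 sample was left out (1 without vehicle B). In other cell types it was 2 with no filter on low counts. The shares of all genes called in those states and cell types under these settings are not given here, so these counts cannot be read against a background. The 1 call of a differing response ranged from 0 to 1 when a sample was left out. In tumor cells 0 genes were called, but 610 with each matrix as 1 sample and 232 with DESeq2, and 0 with the replicate block. The matrix numbers are not known to pair mice. In the oligodendrocyte-like treatment comparison Pdgfa had a value under 15 other settings and each other tested member under 14.

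The turned values of the contrasts in the tally are these. For the treatment (log2, Xevinapant minus vehicle), leaving out 1 sample gave ranges of -0.98 to 0.12 for Egfr, -0.69 to 0.11 for Pdgfra and -0.14 to 0.066 for Pdgfa in tumor cells, -0.75 to 0.22 for Pdgfb in endothelial cells and -0.51 to 0.16 in microglia, and -0.12 to 0.31 for Pdgfra and -0.0083 to 0.75 for Pdgfrb in fibroblasts. Pdgfa in tumor cells was 0.021 without TMM, and in thinned fibroblasts Pdgfra was -0.24 and Pdgfrb -0.25. Across states, stricter gates gave -0.093 for Pdgfa and 0.10 for Fgfr3 in OPC-like cells, 0.056 for Erbb3 in cycling OPC-like cells, 0.16 for Pdgfb in committed OPC-like cells (a call in the fit reported) and 0.058 for Fgfr3 in MES-like cells. Thinned cells gave 0.079 for Fgfr1 and 0.0075 for Fgfr3 in OPC-like cells, 0.24 for Erbb3 in cycling OPC-like cells and 0.038 for Fgfr3 in MES-like cells. With doublets kept, Fgfr1 in OPC-like cells was 0.012 and Erbb3 in MES-like cells -0.045, and without TMM Fgfr1 in OPC-like cells was 0.045. Leaving out 1 sample gave ranges of -0.010 to 0.060 for Pdgfa, -1.21 to 0.15 for Pdgfb (a call, turned without Xevinapant A) and -0.019 to 0.0086 for Fgfr1 in OPC-like cells, -6.24 to 0.16 for Pdgfb and -0.55 to 0.11 for Fgfr3 in oligodendrocyte-like cells, and -0.058 to 1.01 for Pdgfb, -0.12 to 0.010 for Fgfr3 and -0.10 to 0.15 for Erbb3 in MES-like cells. Against tumor cells, Pdgfrb was -4.71 in thinned endothelial cells (a call in the fit reported) and -0.51 in thinned microglia. Without TMM, Fgfr2 was -0.57 in fibroblasts, and Pdgfa -0.17 in microglia and -0.10 in macrophages. Leaving out 1 sample gave -0.20 to 0.99 for Pdgfrb in microglia, and -7.97 to 0.31 for Pdgfrb and -0.27 to 0.83 for Pdgfa in macrophages. Calls lost with the direction kept, beside those in the report, were Pdgfrb in committed OPC-like cells without the barcodes found in both groups (edgeR adjusted p = 0.0579), without TMM, under stricter gates, with each matrix as 1 sample and without vehicle B or Xevinapant A or B, Pdgfb in OPC-like cells with doublets kept and under stricter gates, in cycling OPC-like cells under stricter gates and without Xevinapant A, and in committed OPC-like cells without Xevinapant A, Met in committed OPC-like cells with doublets kept and, as in fibroblasts and microglia, under stricter gates, Erbb3 in OPC-like cells with doublets kept, Pdgfrb in endothelial cells without Xevinapant B, and Fgfr1 in macrophages without Xevinapant A. Calls gained across states were Fgfr3 in committed OPC-like and oligodendrocyte-like cells, Pdgfa in committed OPC-like cells and Pdgfrb in NPC-like cells under stricter gates, Fgfr3 in oligodendrocyte-like cells without Xevinapant A, Fgfr2 in MES-like cells without vehicle C and Fgfr1 in cycling OPC-like cells with each matrix as 1 sample, and across cell types Pdgfa in macrophages without Xevinapant A. The cause of these changes was not tested.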
